A study of Mus musculus with 4 samples.

Results

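Nuclear receptors other than the PPARs were examined in the mouse cell line C8-D1A, which was derived as a clone from brain and is labelled as astrocytes. The members were the genes of a list of 43 hormone and orphan nuclear receptors that have a row in the deposited expression table. This gave 37 genes of the 24169 in the table. The other members, Pgr, Rxrg, Hnf4g, Nr2e1, Nr2e3 and Nr0b1, were not analysed here. The study compared cells kept for 24 h in 1 mM MBP (2 libraries) with untreated cells of the same line (2 libraries). The labels give the compound only as MBP, which is not the myelin gene Mbp. The title of the series speaks of dams exposed to DBP, dibutyl phthalate, which the body turns into monobutyl phthalate. No vehicle is named for the untreated cells. The labels do not state separate cultures for the libraries of a group, so p-values here measure a spread that may be technical.

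Nuclear receptors are transcription factors that bind DNA through zinc fingers and, in many members, switch partners when a small fat-soluble ligand enters their binding domain. Unliganded receptors often hold corepressor complexes, and ligand exchanges these for coactivators. Many bind as dimers with a retinoid X receptor, while steroid receptors mostly pair with themselves and wait in complexes with heat shock proteins. Orphan members, for which no physiological ligand is settled or needed, regulate development and the daily clock. In brain, astrocytes respond to glucocorticoids, thyroid hormone, retinoic acid and oxysterols.

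Levels are given as FPKM, fragments per kilobase of gene and per fixed number of mapped reads, in the order MBP 1, MBP 2, untreated 1, untreated 2. FPKM is scaled by gene length, so it allows levels of different genes to be set side by side. The step between neighbouring low values gave library depths of 23954000, 25907000, 24349000 and 23571000 reads in that order. Read numbers were recovered as whole numbers for 32 of the 37 receptors. They cover counting error only, since no molecular identifiers are described. Of the cells' defining astrocyte markers, Slc1a3 had 0 and 1 reads in the MBP libraries and 0 and 0 in the untreated ones, and Gja1, Aqp4 and Aldh1l1 averaged under 0.1 FPKM. Gfap, Slc1a2 and Aldoc averaged 0.215, 0.194 and 0.277 FPKM. Other markers on the astrocyte list were expressed, with means of 13.3 FPKM for Glul, 5.26 for S100b and 2.34 for Sox9. Vim, which many cell types express, stood at 500.4 and 487.0 FPKM in MBP cells and 528.5 and 531.2 in untreated cells. The summed level of 6 oligodendrocyte lineage markers was 108.5 and 108.9 FPKM in MBP cells, against 123.3 and 118.8 in untreated cells, most of it Sox10. The summed level of 5 neuron markers was 26.1 and 25.7 against 35.5 and 32.8 FPKM, most of it Tubb3, while Snap25 and Syt1 were at or near 0. Microglia markers summed to 5.09 and 5.70 FPKM in MBP cells, against 6.04 and 6.42 in untreated cells, most of it Tmem119, with Itgam at or near 0. Fibroblast and pericyte markers summed to 6.95 and 6.53 FPKM in MBP cells, against 7.80 and 7.23 in untreated cells. Most of it was Pdgfrb, with Dcn at or near 0. Endothelial markers summed to 6.20 and 6.13 FPKM in MBP cells and 6.24 and 5.62 in untreated cells. Nearly all of it was Flt1, with Cdh5 and Kdr at or near 0 and Cldn5 at 0. All of these sums but the endothelial one were lower in both MBP libraries. Each was mostly the level of 1 gene. Of all genes that reached 1 FPKM in 2 or more libraries, 23.5% were lower in both MBP libraries. The part of these markers in the receptor values was not tested. In bulk samples, fewer cells of a type and less RNA per cell cannot be told apart.

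C8-D1A cells expressed 22 of the 37 receptors at a mean of at least 1 FPKM over the 4 libraries, and 15 lay under it. The highest were Nr1d2, Nr2f6, Nr3c1, Nr2f1, Rorb, Rxra and Esrra, with means of 19.6, 18.3, 18.1, 17.8, 16.4, 16.2 and 13.9 FPKM. In the order of the 22 levels, 14 of the 21 pairs of neighbours had ranges over the libraries that overlapped, so the order within the top group is not settled. Gaps without overlap lay between Esrra and Rarg, between Nr1h2, Esrrb and Thra, between Rxrb, Nr4a1 and Nr6a1, and between Rora, Nr1h4 and Thrb. Thrb lay on the line, with 0.942 and 0.907 FPKM in MBP cells and 1.02 and 1.15 in untreated cells. Nr4a2, with a mean of 0.925, and Vdr, with a mean of 0.798, lay just under it.

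**Figure D1:**
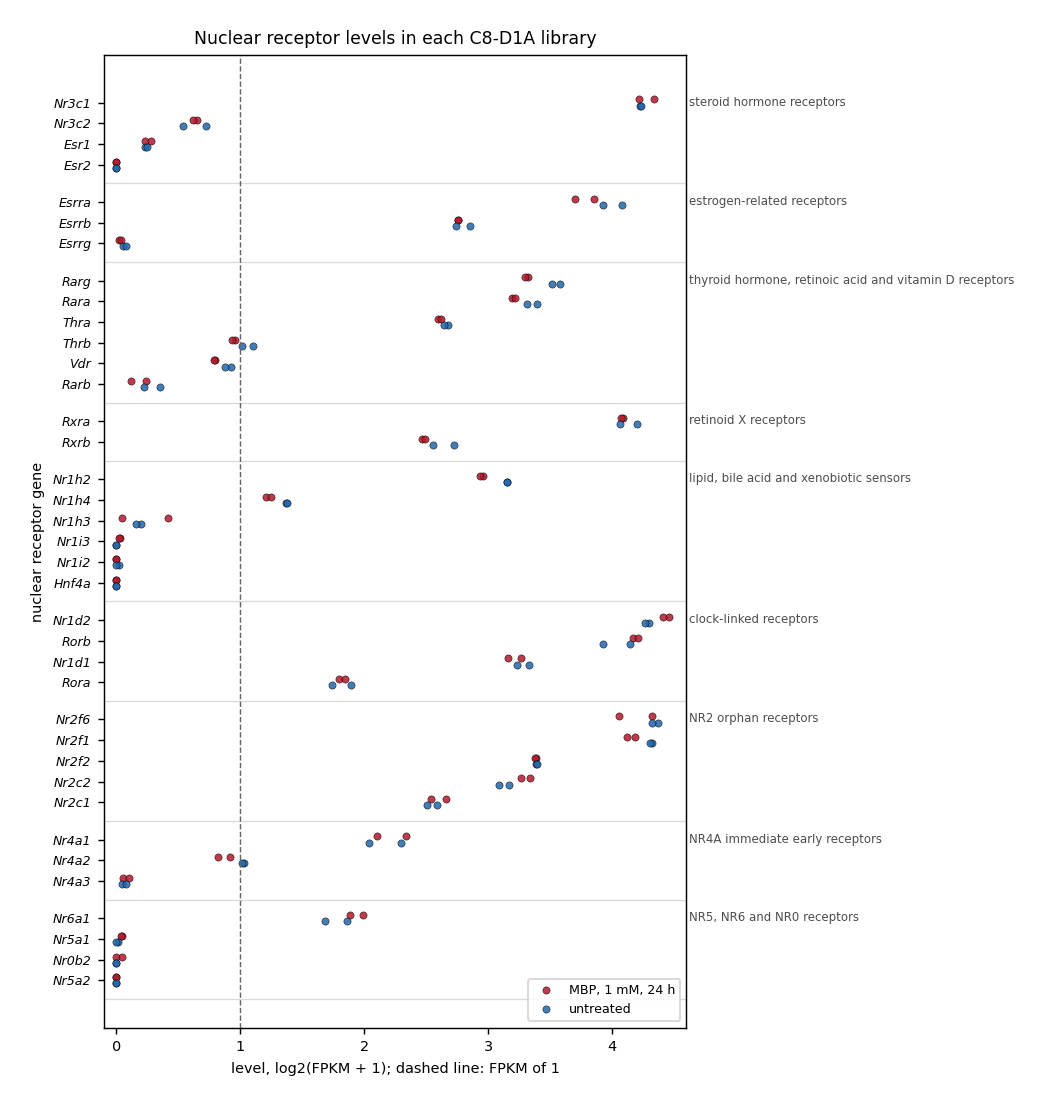
Level of each of the 37 nuclear receptors as log2(FPKM + 1) on the x axis, with 1 point per library, MBP cells (red) above untreated cells (blue), grouped by role. The dashed line marks an FPKM of 1. The distance between receptors is far larger than that between treated and untreated cells: Nr1d2 averaged 19.6 FPKM, and Hnf4a, Nr5a2 and Esr2 were at 0.

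The promoters of receptors at a mean of 1 FPKM or more had a higher median CpG ratio than those of receptors under it, as was so for genes in general. RefSeq windows on GRCm38.p6, from 250 bases before to 50 after the most upstream listed start, were at hand for 34 of the 37 receptors. The ratio of observed to expected CpG had a median of 0.775 in 20 receptors at 1 FPKM or more and 0.455 in 14 under it. The same split over genes of the table with a window, receptors included, gave a contrast of similar size. The medians were 0.796 in 8261 genes at 1 FPKM or more and 0.391 in 4932 under it. A ratio of at least 0.6 was found in 14 of the 20 (70%) and in 4 of the 14 (28.6%), beside 78.7% and 32.3% of genes of the table on the same sides of 1 FPKM. The receptors under 1 FPKM are not all silent, since Nr4a2, Vdr and Nr3c2 had 69 to 123 reads in each library. The listed start need not be the one these cells use. To show the contrast, the 250 bases before the start are printed for the receptor with the highest level (Nr1d2, minus strand, chr14:18239107-18239356, 15 CpG) and for a receptor without a read (Hnf4a, plus strand, chr2:163506607-163506856, 3 CpG), with each CG in capitals.
Nr1d2: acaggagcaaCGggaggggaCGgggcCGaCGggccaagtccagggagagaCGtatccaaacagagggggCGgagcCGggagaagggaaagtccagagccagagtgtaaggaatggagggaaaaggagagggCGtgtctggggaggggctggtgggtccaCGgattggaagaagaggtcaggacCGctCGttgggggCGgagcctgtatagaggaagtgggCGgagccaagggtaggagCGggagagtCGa
Hnf4a: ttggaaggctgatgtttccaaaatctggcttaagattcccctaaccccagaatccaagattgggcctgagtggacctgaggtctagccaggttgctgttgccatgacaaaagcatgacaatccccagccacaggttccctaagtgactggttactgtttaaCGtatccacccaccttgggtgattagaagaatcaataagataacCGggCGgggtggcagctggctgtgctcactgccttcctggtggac
Some expressed receptors went the other way. Nr2f2, at 9.44 FPKM, had a ratio of 0.109, and Esrrb, at 5.86 FPKM, had 0.266. Nr4a3 and Esrrg, with ratios of 0.866 and 0.707, averaged 0.0492 and 0.0332 FPKM.

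**Figure D2:**
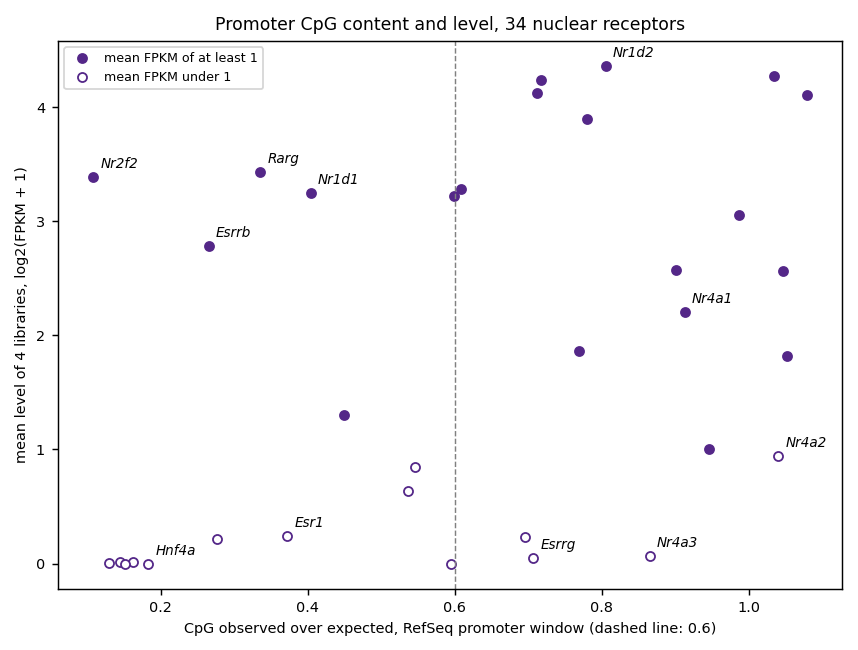
Ratio of observed to expected CpG in the RefSeq promoter window (x axis) against the mean level over the 4 libraries as log2(FPKM + 1) (y axis) for 34 receptors, filled where the mean is at least 1 FPKM and open where it is lower. To the right of the dashed line at 0.6 lie 14 of the 20 filled and 4 of the 14 open points, and Nr2f2 at 0.109 is the leftmost point.

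Whether MBP altered receptor transcript levels was asked in a fit over the 12403 genes that reached 1 FPKM in 2 or more libraries, which took in 23 receptors. None passed. With limma and Benjamini-Hochberg adjustment at a threshold of 0.05, 0 of 23 receptors were called, and 0% of all tested genes. The lowest adjusted p among the receptors was 0.496. Log2 fold changes, always MBP minus untreated on the log2(FPKM + 1) scale, lay between -0.24 (Rarg) and 0.18 (Nr2c2). The scale understates the change of low genes such as Thrb. Their 95% intervals lay between -0.47 and 0.43 for all 23. At an unadjusted limma p under 0.05 there were 6 receptors of 23 (background over all tested genes 9.68%). Of these, 2 were higher in MBP (Nr1d2 and Nr2c2, background 3.81%) and 4 lower (Rarg, Nr1h2, Nr2f1 and Esrra, background 5.87%). The count moved with the libraries used. It was 1 without MBP 1 (background 4.85%), 1 without MBP 2 (5.74%), 7 without untreated 1 (18.2%) and 3 without untreated 2 (7.64%). With each library left out in turn, the log2 fold changes of these 6 could not change sign, because their groups did not overlap. They ran from -0.28 to -0.20 for Rarg, -0.22 to -0.20 for Nr1h2, -0.19 to -0.13 for Nr2f1, -0.30 to -0.15 for Esrra, 0.13 to 0.18 for Nr1d2 and 0.14 to 0.21 for Nr2c2. These 6 are described as values, since none passed the adjustment. Thrb and Nr4a2 were tested only because both untreated libraries reached 1 FPKM, so their lower values in MBP cells follow in part from the filter. With 2 libraries a group, the smallest exact permutation p is 0.333, so none is given for single receptors.

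**Figure D3:**
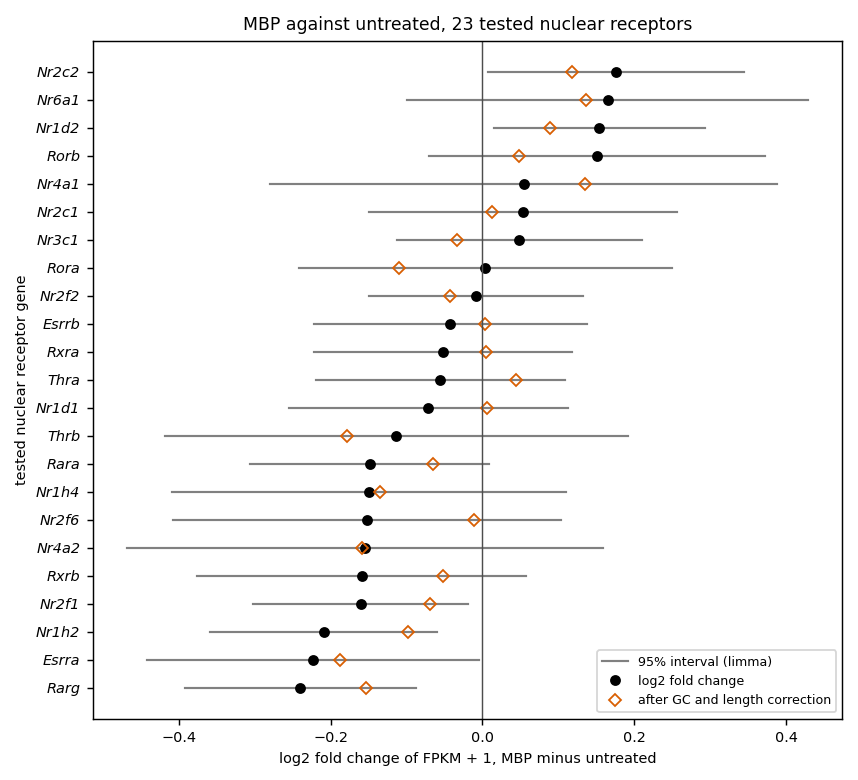
Log2 fold change of FPKM + 1, MBP minus untreated (x axis), for the 23 tested receptors (y axis), with limma's 95% interval as a line, and the GC- and length-corrected value as an open diamond. The points run from -0.24 for Rarg to 0.18 for Nr2c2, and for most receptors far from 0 the diamond lies nearer to 0.

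Among steroid hormone receptors the cells carried mainly the glucocorticoid receptor. Nr3c1, which encodes it, had 17.6 and 19.2 FPKM in MBP cells and 17.7 and 17.8 in untreated cells, and the groups overlapped. The log2 fold change was 0.048 (95% interval -0.11 to 0.21, limma adjusted p = 0.789). Nr3c2, the mineralocorticoid receptor, lay under the filter at 0.574 and 0.537 FPKM in MBP cells and 0.647 and 0.452 in untreated cells. Nr3c1 stood 27.4 to 39.4 times above Nr3c2 over the 4 libraries. Esr1, estrogen receptor alpha, was at 0.171 and 0.215 FPKM in MBP cells and 0.171 and 0.186 in untreated cells, from 56 to 76 reads. Esr2, estrogen receptor beta, had 0 reads in every library, which at a limit of 3 reads allows up to 0.0344 to 0.0378 FPKM by counting error.

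The estrogen-related receptors, orphans that work without estrogen and drive mitochondrial and energy genes, were better represented. Esrra had 12.02 and 13.4 FPKM in MBP cells and 14.2 and 15.9 in untreated cells, with both MBP libraries below both untreated ones. The log2 fold change was -0.22 (95% interval -0.44 to -0.00454, limma adjusted p = 0.512). Esrrb, known for its part in pluripotent cells and the inner ear, had 5.77 and 5.74 FPKM in MBP cells and 6.23 and 5.70 in untreated cells. Its groups overlapped. Esrrg had 2 and 4 reads in MBP cells and 6 and 8 in untreated cells, too few for a comparison.

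Among thyroid hormone, retinoic acid and vitamin D receptors, Thra, Rara and Rarg passed the filter in both groups, and each had lower values in both MBP libraries. The background for a lower, separate MBP group is 23.5%, and after the GC and length correction Thra stood at 0.045. Thrb entered only through its untreated libraries and is not counted here. The summed level of all 6 was 24.0 FPKM in each MBP library, against 28.1 and 26.8 in untreated cells. Rarg, retinoic acid receptor gamma (chromosome 15, 102234938 to 102257517, GRCm38), had 8.97 and 8.83 FPKM in MBP cells and 11.0 and 10.4 in untreated cells. The log2 fold change was -0.24 (SE 0.0595, 95% interval -0.39 to -0.088, limma adjusted p = 0.496), and -0.15 after the GC and length correction. It was the 1 receptor with an unadjusted p under 0.05 after that correction (limma unadjusted p = 0.045), where 6.93% of genes had one.

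Rara, retinoic acid receptor alpha, had 8.16 and 8.29 FPKM in MBP cells and 9.50 and 8.95 in untreated cells. Rarg exceeded Rara 1.10 and 1.07 times in MBP cells and 1.16 times in each untreated library. Rarb, retinoic acid receptor beta and itself a target of retinoic acid, had 23 and 12 reads in MBP cells and 35 and 21 in untreated cells. Top2b, on the opposite strand, covers 34.1% of its exonic length, and whether the authors' counting used strand is not given. Thra, thyroid hormone receptor alpha, had 5.05 and 5.14 FPKM in MBP cells and 5.40 and 5.26 in untreated cells, a log2 fold change of -0.055. Thra exceeded Thrb 5.36 and 5.66 times in MBP cells and 5.32 and 4.57 times in untreated cells. Vdr, the vitamin D receptor, lay under the filter at 0.731 FPKM in each MBP library and 0.894 and 0.833 in untreated cells. Its groups did not overlap, on 99 to 123 reads.

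Of the retinoid X receptors, the shared dimer partners of many other members, Rxra was the main form. Rxra had 16.0 and 15.8 FPKM in MBP cells and 15.7 and 17.4 in untreated cells, a log2 fold change of -0.052 with groups that overlapped. Rxrb had 4.53 and 4.63 FPKM in MBP cells and 4.86 and 5.62 in untreated cells, a log2 fold change of -0.16. Its groups did not overlap, by a gap smaller than that between the untreated libraries. The log2 fold change was -0.072 without untreated 2, -0.25 without untreated 1 and -0.053 after the GC and length correction. Rxra exceeded Rxrb 3.54 and 3.41 times in MBP cells and 3.24 and 3.09 times in untreated cells.

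Among the sensors of sterols, bile acids and foreign compounds, Nr1h2 (LXR beta, an oxysterol receptor) was the main one. It had 6.76 and 6.63 FPKM in MBP cells, from 543 and 576 reads, and 7.90 and 7.89 in untreated cells, from 645 and 624 reads. The untreated libraries almost coincided. Its log2 fold change was -0.21 (SE 0.0583, 95% interval -0.36 to -0.060, limma adjusted p = 0.503), and -0.098 after the GC and length correction. Nr1h3 (LXR alpha) had 2 and 22 reads in MBP cells and 9 and 7 in untreated cells, so the MBP libraries lay on both sides of the untreated ones.

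Nr1h4, the bile acid receptor FXR, best known from liver and gut, passed the filter here. It had 1.31 and 1.37 FPKM in MBP cells, from 72 and 82 reads, and 1.59 and 1.60 in untreated cells, from 89 and 87 reads. Its log2 fold change was -0.15 (95% interval -0.41 to 0.11). The xenobiotic receptors were at or near 0. Nr1i2 (PXR) had 0 reads in each MBP library and 1 and 0 in untreated cells. Nr1i3 (CAR) had 2 reads in each MBP library and 0 in each untreated one, and Tomm40l on the opposite strand covers 74.9% of its exonic length. Hnf4a, the liver and kidney regulator, had 0 reads in every library, which allows up to 0.0240 to 0.0264 FPKM.

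All 4 receptors linked to the daily clock were expressed, with a summed level of 49.2 and 48.3 FPKM in MBP cells, against 47.3 and 43.2 in untreated cells. ROR receptors activate and REV-ERB receptors repress the same response elements in clock genes. Nr1d2 (REV-ERB beta; chromosome 14, 18204054 to 18239127, GRCm38) had 21.1 and 20.3 FPKM in MBP cells and 18.7 and 18.2 in untreated cells, with both MBP libraries above. Its log2 fold change was 0.15 (SE 0.0544, 95% interval 0.015 to 0.29, limma adjusted p = 0.509), and 0.089 after the GC and length correction. Its paralogue Nr1d1 (REV-ERB alpha) had 8.60 and 7.94 FPKM in MBP cells and 9.08 and 8.41 in untreated cells, and its groups overlapped. Nr1d2 exceeded Nr1d1 2.45 and 2.55 times in MBP cells and 2.06 and 2.17 times in untreated cells. The tail ends of Nr1d1 and Thra lie on opposite strands of chromosome 11 and share 263 exonic bases, 8.55% of Nr1d1 and 5.70% of Thra, so a few of their reads may be exchanged if strand was not used.

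Rorb, an ROR form known from retina and cortex, had 17.0 and 17.5 FPKM in MBP cells and 16.7 and 14.2 in untreated cells, a log2 fold change of 0.15 (95% interval -0.070 to 0.37). The higher untreated library lay close to the MBP libraries, and the groups differed mainly through untreated 2. Without that library the log2 fold change was 0.042, and without untreated 1 it was 0.26. Rora had 2.47 and 2.60 FPKM in MBP cells and 2.72 and 2.34 in untreated cells, a log2 fold change of 0.00375. Rorb exceeded Rora 6.90 and 6.72 times in MBP cells and 6.15 and 6.08 times in untreated cells.

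Of the NR2 orphans, COUP-TF and related repressors of development, all 5 in the table were expressed. Nr2f1 (COUP-TF1) had 17.2 and 16.4 FPKM in MBP cells and 19.0 and 18.7 in untreated cells, a log2 fold change of -0.16 (SE 0.0551, 95% interval -0.30 to -0.019, limma adjusted p = 0.503), and -0.069 after the GC and length correction. Both MBP libraries lay below both untreated ones. Its paralogue Nr2f2 (COUP-TF2) had 9.44 and 9.38 FPKM in MBP cells and 9.46 and 9.49 in untreated cells, a log2 fold change of -0.00878 (95% interval -0.15 to 0.13). Its groups did not overlap either, although they were nearly equal, which shows how little that criterion asks with 2 libraries a group. Nr2f6 had 19.1 and 15.7 FPKM in MBP cells and 19.7 and 19.0 in untreated cells. Its log2 fold change of -0.15 rested on MBP 2 and was -0.018 without it, against -0.29 without MBP 1. Ocel1, on the opposite strand at under 1 FPKM, covers 54.4% of the exonic length of Nr2f6.

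Nr2c2 (TR4, a testicular receptor that is widely expressed; chromosome 6, 92091390 to 92174294, GRCm38) had 9.14 and 8.61 FPKM in MBP cells and 7.97 and 7.51 in untreated cells. Its log2 fold change was 0.18 (SE 0.0658, 95% interval 0.00697 to 0.34, limma adjusted p = 0.512), and 0.12 after the GC and length correction. Mrps25, on the opposite strand, shares 30.7% of its exonic length and stood at 5.55 and 5.61 FPKM in MBP cells and 5.43 and 5.48 in untreated cells. Nr2c1 (TR2) had 4.80 and 5.32 FPKM in MBP cells and 5.01 and 4.67 in untreated cells, and its groups overlapped. Nr6a1, a repressor of early embryonic genes, had 2.97 and 2.70 FPKM in MBP cells and 2.64 and 2.21 in untreated cells, a log2 fold change of 0.16 (95% interval -0.10 to 0.43). It was 0.073 without untreated 2 and 0.26 without untreated 1. Nr5a1, the steroidogenic factor of adrenal and gonad, had 3 reads in each MBP library and 1 and 0 in untreated cells. Nr5a2 had 0 reads in every library, and Nr0b2 (SHP), a receptor without a DNA-binding domain, had 0 and 1 in MBP cells and 0 in each untreated library.

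The NR4A receptors are ligand-independent immediate early genes, switched on within minutes by cAMP and calcium signals through CREB. Nr4a1 had 4.05 and 3.31 FPKM in MBP cells and 3.92 and 3.10 in untreated cells. The libraries of a group lay farther apart than the groups, and the log2 fold change was 0.054 (95% interval -0.28 to 0.39). Nr4a2 had 0.884 and 0.761 FPKM in MBP cells and 1.04 and 1.01 in untreated cells, from 86, 80, 103 and 97 reads in the usual order, a log2 fold change of -0.15 (95% interval -0.47 to 0.16). Nr4a3 had 5 and 11 reads in MBP cells and 5 and 8 in untreated cells.

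Although their levels differed widely, the promoter windows of these paralogues shared a feature. Each held 4 matches to TGACG, the core of the cAMP response element to which CREB binds, counted on both strands (TGACG or CGTCA). Over 27025 RefSeq genes 20.9% of windows held at least 1 match and 0.244% held at least 4. Among genes of the table these shares were 34.3% and 0.642% at 1 FPKM or more, and 18.7% and 0.182% under it. TGACG itself holds a CG. The CpG ratios were 0.913 for Nr4a1, 1.04 for Nr4a2 and 0.866 for Nr4a3, beside a median of 0.389 over the RefSeq genes. The part of CpG content in the matches was not tested. None of the NR4A windows held the full TGACGTCA, which 1.85% of all RefSeq windows hold. The motif was searched because this family is known to be driven by CREB, and a match is a description, not a site. The 250 bases before the start are printed with the matches in capitals, for Nr4a1 (plus strand, chr15:101266596-101266845), Nr4a2 (minus strand, chr2:57124004-57124253) and Nr4a3 (plus strand, chr4:48045055-48045304).
Nr4a1: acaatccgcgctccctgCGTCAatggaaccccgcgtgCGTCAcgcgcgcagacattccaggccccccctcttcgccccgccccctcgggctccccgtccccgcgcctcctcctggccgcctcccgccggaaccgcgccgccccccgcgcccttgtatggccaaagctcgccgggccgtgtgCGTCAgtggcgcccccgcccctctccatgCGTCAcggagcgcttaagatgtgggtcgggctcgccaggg
Nr4a2: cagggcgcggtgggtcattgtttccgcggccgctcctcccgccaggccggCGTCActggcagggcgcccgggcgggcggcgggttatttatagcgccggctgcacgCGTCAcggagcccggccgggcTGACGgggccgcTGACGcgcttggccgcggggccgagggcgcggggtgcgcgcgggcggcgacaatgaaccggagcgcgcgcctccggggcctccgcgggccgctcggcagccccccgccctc
Nr4a3: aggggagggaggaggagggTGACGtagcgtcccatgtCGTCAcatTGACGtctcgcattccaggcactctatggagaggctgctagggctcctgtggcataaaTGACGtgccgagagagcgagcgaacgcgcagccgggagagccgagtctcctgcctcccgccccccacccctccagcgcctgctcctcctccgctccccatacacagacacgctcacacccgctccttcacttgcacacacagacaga
In Nr4a1 all 4 matches read CGTCA, in Nr4a2 2 read TGACG and 2 read CGTCA, and in Nr4a3 3 read TGACG and 1 reads CGTCA.

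By direction, 13 of the 21 receptors that passed the filter in both groups had a negative and 8 a positive log2 fold change, with a median of -0.052 beside -0.0048 over all tested genes. In 13 of the 21 the groups did not overlap, 4 with MBP higher and 9 with MBP lower. Over all tested genes these shares were 44.8% in either direction, 21.3% higher and 23.5% lower. Thrb and Nr4a2 are left out of these counts. Log2 fold changes moved with the GC content of the transcript over all genes. Spearman's rho was -0.442, a description across genes of the same 4 libraries, and the lowest and highest eighths by GC content had medians of 0.081 and -0.091. Rarg, Nr1h2 and Nr2f1 had 58.8%, 60.6% and 60.2% GC, while Nr1d2 and Nr2c2 had 41.8% and 46.1%. Esrra had 50.3%. Other receptors went against the trend, with Nr1h4 at -0.15 and 47.2% GC, Nr4a2 at -0.15 and 47.9%, and Nr4a1 at 0.054 and 57.0%. After the correction for GC content and length, the median of all 23 tested receptors was -0.034, beside -0.055 for the same 23 before it. These 23 include Thrb and Nr4a2, which entered only through their untreated libraries. Both lay below that median after the correction, at -0.18 and -0.16. In the corrected fit 1 of 23 had an unadjusted limma p under 0.05 (background 6.93%), and Thra, Rxra, Esrrb, Nr1d1, Nr3c1 and Rora had the opposite sign.

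**Figure D4:**
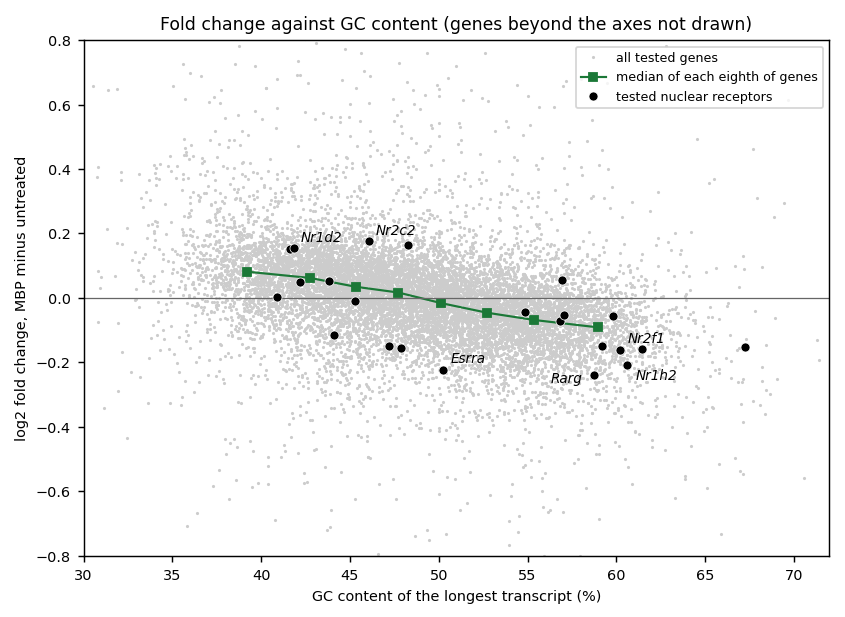
GC content of the longest transcript in percent (x axis) against the log2 fold change of FPKM + 1, MBP minus untreated (y axis), for all tested genes (grey), the medians of eighths of genes by GC content (green squares) and the 23 tested receptors (black), with the 6 at an unadjusted p under 0.05 named. The medians fall with GC content, with 0.081 in the lowest eighth and -0.091 in the highest. Of the named receptors Nr1d2 and Nr2c2 lie on the low side and Rarg, Nr1h2 and Nr2f1 on the high side.

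Genes that work with the receptors were counted in the same fit, where again 0 genes in any list passed limma's adjusted threshold. All 13 coactivators were tested, with a median log2 fold change of 0.027 and 3 higher and 1 lower without overlap (background 21.3% and 23.5%). Of those with the highest levels, Prmt1, an arginine methyltransferase, had 47.5 and 45.3 FPKM in MBP cells and 47.2 and 50.7 in untreated cells. Pprc1, a relative of PGC-1, had 33.2 and 30.4 FPKM in MBP cells and 32.5 and 30.8 in untreated cells. Med1, the Mediator subunit that contacts receptors, had 23.4 and 22.4 FPKM in MBP cells and 22.3 and 22.4 in untreated cells.

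Corepressors had a median of 0.092 over 10 tested genes, 7 positive, with 6 higher in MBP cells without overlap (background 21.3%) and 0 lower. At an unadjusted limma p under 0.05 there were 3, all higher (background 3.81%). After the GC and length correction their median was 0.050. The deacetylase Hdac3 had 37.5 and 37.7 FPKM in MBP cells and 37.3 and 40.6 in untreated cells. The scaffold Ncor1 had 35.9 and 34.4 FPKM in MBP cells and 35.4 and 30.1 in untreated cells. The groups of both genes overlapped, so neither is among the 6.

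The list of chaperones had a median of -0.041 over 10 genes. Hsp90b1, the HSP90 form of the endoplasmic reticulum, was named after its values were seen. It was the 1 of these with an unadjusted limma p under 0.05 (background 9.68%). It had 189.9 and 195.5 FPKM in MBP cells and 222.2 and 234.6 in untreated cells. The log2 fold change of Hsp90b1 was -0.24 (limma adjusted p = 0.496), beside -0.047 for Hsp90ab1 and 0.00025 for Hsp90aa1. Hsp90ab1, the main constitutive HSP90, had 655.9 and 619.2 FPKM in MBP cells and 648.1 and 668.8 in untreated cells, and Hspa8 had 409.7 and 381.8 FPKM in MBP cells and 399.0 and 411.6 in untreated cells. Stip1, which links HSP70 with HSP90, had 220.7 and 198.0 FPKM in MBP cells and 232.6 and 203.1 in untreated cells. Of 16 genes of ligand synthesis and breakdown in the table, 8 were tested, with a median of -0.032. Hsd17b12 and Hsd17b4, steroid and fatty acid dehydrogenases, led them, with 72.3 and 73.5 FPKM in MBP cells and 67.0 and 82.6 in untreated cells for Hsd17b12. Hsd17b4 had 31.5 and 32.2 FPKM in MBP cells and 29.0 and 36.7 in untreated cells. Srd5a1, a steroid reductase, had 3.39 and 3.30 FPKM in MBP cells and 2.72 and 2.96 in untreated cells, a log2 fold change of 0.18 (limma adjusted p = 0.53).

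Lists of target genes had medians between -0.12 and 0.018. Glucocorticoid receptor targets had a median of 0.018 over 12 tested genes. These include Pdk4 (-0.26), tested only because both untreated libraries reached 1 FPKM, so its lower values in MBP cells follow in part from the filter. Mt2 had 242.1 and 200.9 FPKM in MBP cells and 251.7 and 204.5 in untreated cells. Mt1 had 133.3 and 103.9 FPKM in MBP cells and 132.8 and 84.2 in untreated cells, so these metallothioneins differed more within than between groups. Errfi1, a feedback inhibitor of the EGF receptor, had 42.8 and 37.6 FPKM in MBP cells and 36.8 and 37.7 in untreated cells. Cebpd and Sgk1, named after their values were seen, were the 2 of these 12 genes with an unadjusted limma p under 0.05 (background 9.68%). Cebpd, a transcription factor, had 1.06 and 1.22 FPKM in MBP cells and 2.17 and 2.48 in untreated cells, a log2 fold change of -0.64 (limma adjusted p = 0.457). Sgk1, a kinase, had 22.0 and 21.5 FPKM in MBP cells and 17.3 and 20.03 in untreated cells, a log2 fold change of 0.21 (limma adjusted p = 0.512). Of 11 retinoic acid and thyroid hormone targets in the table only 3 were tested, with a median of -0.071. They were Klf9, at 21.2 and 22.6 FPKM in MBP cells and 21.9 and 21.1 in untreated cells, Hr, the thyroid-responsive corepressor hairless, and Dhrs3, a retinaldehyde reductase induced by retinoic acid. Hr had 17.7 and 18.7 FPKM in MBP cells and 19.6 and 18.7 in untreated cells. Dhrs3 had 1.28 and 0.989 FPKM in MBP cells and 1.71 and 1.80 in untreated cells, a log2 fold change of -0.37 (limma adjusted p = 0.503).

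LXR targets had a median of -0.12 over 7 tested genes, 6 of them negative, and -0.063 after the GC and length correction. The 1 positive gene was Apoe, at 0.066. Abcg1 had 0 reads in every library and was not tested. Abca1 was not tested either, at 0.544 FPKM in each MBP library and 0.654 and 0.618 in untreated cells. Scd2, a fatty acid desaturase, had 207.0 and 222.6 FPKM in MBP cells and 222.5 and 244.5 in untreated cells. Fasn, fatty acid synthase, had a log2 fold change of -0.26 (limma adjusted p = 0.486), and Srebf1, which activates it, had one of -0.046. Clock genes had a median of 0.0059 over 13 tested genes, with 3 higher and 3 lower without overlap (background 21.3% and 23.5%). Clock, a positive arm of the oscillator, had 14.3 FPKM in each MBP library and 13.4 and 11.9 in untreated cells. Tef had 10.3 and 10.7 FPKM in MBP cells and 10.9 and 11.8 in untreated cells, and Bhlhe40 had 7.77 and 6.79 FPKM in MBP cells and 7.70 and 7.72 in untreated cells.

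**Figure D5:**
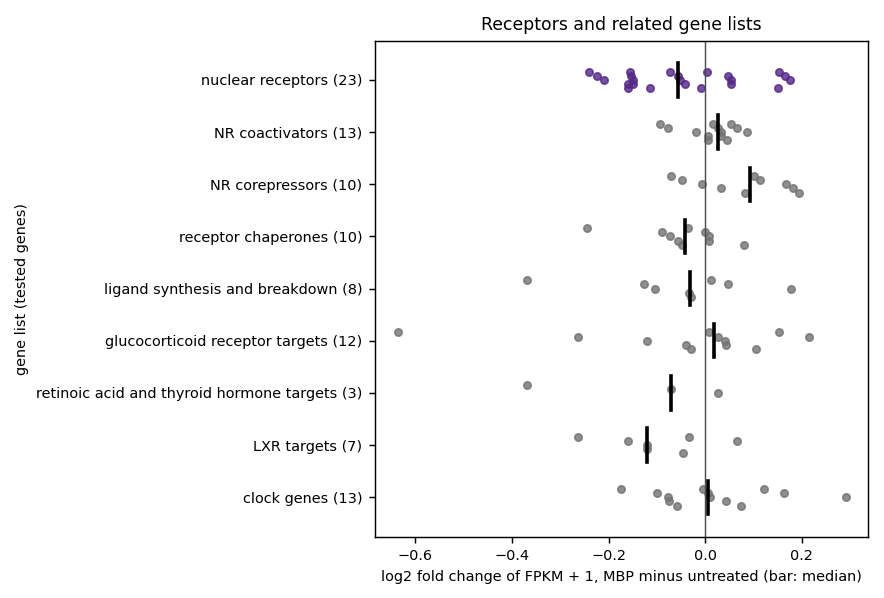
Log2 fold change of FPKM + 1, MBP minus untreated (x axis), for each tested gene of the receptors and of 8 lists of related genes (y axis, with the number tested), with a bar at the median. The medians lie between -0.12 for LXR targets and 0.092 for corepressors, and no gene shown passed the adjusted threshold.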

How the data were processed

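Total RNA from 4 C8-D1A samples was sequenced after rRNA depletion with a directional kit, per the labels' protocols. Tools named in the submitters' processing notes are bcl2fastq and HISAT2, with the build GRCm38. For versions, counting program, annotation and strand, nothing is given in the sources used here. A single FPKM table of 24169 genes was deposited by the authors, and sample titles identified its columns. Replicate numbers follow accession order and do not pair samples.

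GENCODE mouse release M21 held 24121 of the gene identifiers and gave exon length, transcript length, GC content and overlaps. FPKM times exon length gave whole reads (within 0.05, for values under 1000 reads) for at least 99.95% of single-exon genes and 93.8% to 94.0% of all values. Depth follows from that step.

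Values were tested as log2(FPKM + 1), two-sided, with limma 3.58.1 in R 4.3.3 (eBayes with a trend) over genes that reached 1 FPKM in 2 or more libraries, adjusted by Benjamini-Hochberg, threshold 0.05. Genes under the filter are given as values. The test was checked on simulated data, where false calls fell mostly on genes with few reads. Every member was named, and from each related list the 3 genes with the highest mean level, of which 1 is not reported here. Members, lists and alternatives were chosen with earlier results of these data known. The GC and length correction was a loess fit per library (span 0.5). Other alternatives were a pseudocount of 0.1, other filters, TPM, median-of-ratios and quantile scaling, other spread models, limma-voom on recovered reads, protein-coding genes only and each library left out.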

Additional observations from a re-analysis of the deposited data

How the results depend on the processing

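The count of 0 receptors past limma's adjusted threshold held in every alternative run, and the lowest adjusted p of a receptor in them was 0.232. For all genes the count was 4 with the spread trend on recovered reads and 7 with limma-voom on those reads, none of them a receptor, and 0 in the other alternatives, including each library left out (0 to 0 genes, 0 to 0 receptors). Leaving out 1 library left that group with a single library, assumed to vary like the other group. The number of receptors at 1 FPKM or more was 25 as TPM, 21 when every library had to reach it, 15 at a limit of 5 FPKM, and 21 to 22 with a library left out.

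Of 338 log2 fold changes of receptors under alternatives, 15 had the opposite sign in 9 receptors. After the GC and length correction these were Nr3c1 (-0.0341), Esrrb (0.00318), Thra (0.0447), Rxra (0.00417), Rora (-0.11) and Nr1d1 (0.00601). As TPM it was Nr2f2 (0.0123). With a library left out the values ran from -0.0108 to 0.11 for Nr3c1, -0.10 to 0.0131 for Esrrb, -0.12 to 0.0141 for Rxra, -0.0741 to 0.0816 for Rora, -0.00850 to 0.11 for Nr2c1 and -0.0764 to 0.18 for Nr4a1. The causes were not tested. No paired analysis was possible because the sample titles share at most 1 number between the groups and nothing in the labels says that it pairs samples. Depth limits the silent receptors: those with under 25 reads in a library give no comparison.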
